A study of Mus musculus with 12 samples.

Results

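The features described here are the 91 probes of the mouse immunoglobulin heavy chain locus among the 39429 gene probes of a one-colour Agilent array. They were selected by annotation from the 162 probes that the array places in chr12:114400000-117300000 of the mm9 build: those whose description contains immunoglobulin, Ig, antibody, heavy chain or VDJ, or whose gene name starts with Igh. By the words of the annotation, and by position where the words did not say, 11 probes were constant features and 76 were variable features. For the other 4 the text and the position lay on different sides. The annotated positions run from chr12:114496985-114497044 to chr12:117247846-117247905. The locus was picked from an earlier comparison of these same arrays, in which it was higher in the YFP+ samples. Differences between the groups are therefore given for these 91 probes as a description, with no p-value.

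The samples were macrophages labelled as from pancreas tumours, sorted into lysis buffer, in 6 YFP+ and 6 YFP− samples with 1 array each. All 12 came from female C57/B6 mice of 8 to 10 weeks that had been implanted with tumours, and their genotype is given as not provided. The series' design text names wild-type, KPC and FLT3-CRE/LSL-YFP mice, the last of which carry a Cre recombinase driven by Flt3, a receptor of haematopoietic progenitors, and a YFP reporter that Cre turns on. Sample titles carry 6 tumour numbers, renumbered 1 to 6, each found once per group. The labels do not say whether the numbers are separate animals, so the p-values below speak only for the spread among these 12 arrays, some of which may be technical.

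An antibody heavy chain is made from a variable part, joined in developing B cells from V, D and J segments by recombination, and a constant part that sets its class. A B cell first makes the mu and delta classes and can later switch to a gamma, epsilon or alpha class by deleting the constant genes in between. Plasma cells, the antibody-secreting end stage of the lineage, hold very large amounts of heavy chain mRNA. Macrophages bind antibody through Fc receptors.

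Each probe is a run of 60 bases. The constant probes shared little sequence with the other members: the longest run that a constant probe had in common with any of the other 90 was 7 to 13 bases (median 9). The longest was between the probe on the gamma 1 side and the gamma 3 probe, printed below with the shared run in capitals, since they stand for neighbouring classes of the locus. Sequences are those of the array's design, 5′ to 3′, and all lie on the minus strand of mm9.

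A_51_P461067, gamma 1 side, chr12:114567263-114567322: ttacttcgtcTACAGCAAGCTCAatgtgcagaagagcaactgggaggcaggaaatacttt
A_55_P2118876, gamma 3, chr12:114597942-114598001: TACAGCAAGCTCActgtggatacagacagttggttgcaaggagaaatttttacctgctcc

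Next come the constant probes that the account of the classes rests on, with no part marked.

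A_55_P1960148, alpha side, chr12:114497090-114497149: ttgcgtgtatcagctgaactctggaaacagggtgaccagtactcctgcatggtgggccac
A_55_P2063283, gamma 2b, chr12:114544738-114544797: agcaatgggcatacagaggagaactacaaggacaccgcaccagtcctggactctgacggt
A_51_P485421, mu, chr12:114659630-114659689: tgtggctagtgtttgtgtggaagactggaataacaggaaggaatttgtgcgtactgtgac

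Variable probes overlapped far more. Their longest shared run was 8 to 39 bases (median 21), and 39 of 76 shared at least 20 bases with another member, and how far such probes take up each other's transcripts was not tested. The pairs with the longest shared runs are shown, with the shared run in capitals.

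A_55_P2142499, chr12:115895649-115895708: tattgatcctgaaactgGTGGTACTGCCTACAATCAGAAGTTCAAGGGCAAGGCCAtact
A_55_P2075510, chr12:116002746-116002805: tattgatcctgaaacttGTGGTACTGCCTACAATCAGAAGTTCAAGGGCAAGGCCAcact
A_55_P2001281, chr12:116396734-116396793: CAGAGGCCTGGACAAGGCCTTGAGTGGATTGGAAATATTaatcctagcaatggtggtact
A_55_P1993001, chr12:116446433-116446492: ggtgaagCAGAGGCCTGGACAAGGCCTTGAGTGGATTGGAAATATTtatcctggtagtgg

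The run TATTACTGTGC encodes the tyrosine, tyrosine and cysteine that close the third framework of many V segments, just before the joint to D. It was read from the Ighv1-33 probe, as the bases just before the tail of the segment, and searched in all probes. It stood in 5 of the 91 members, all variable, and in 15 of the 39429 probes of the array (0.0380%), or in 16 (0.0406%) when the complementary strand was searched too. The heptamer of the recombination signal, CACAGTG, stood in 309 probes (0.784%), or in 620 (1.57%) on either strand, and in 2 members, or 3 on either strand. The probe annotated as Ighv1-33 held both, with the heptamer in the place where an unjoined V segment has it. The probe A_55_P2025586, 1 of the 3 with the largest differences between the groups, held only the first. Both are shown with these motifs in capitals.

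A_55_P1966608, Ighv1-33, chr12:117247846-117247905: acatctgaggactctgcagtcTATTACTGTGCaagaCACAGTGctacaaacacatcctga
A_55_P2025586, chr12:115560585-115560644: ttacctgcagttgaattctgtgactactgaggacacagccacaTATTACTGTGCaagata

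Levels are log2 processed signals minus the array's 75th percentile, so that 0 is the level of that percentile and an array is compared with itself before it is compared with others. YFP+ arrays were brighter before this scaling, with a 75th percentile of 3260 to 3930 signal units against 2121 to 3329 in YFP−, and 63.0% to 66.1% of probes well above background against 61.3% to 63.9%. Each of the 3 slides held 2 YFP+ and 2 YFP− arrays. All 16 core macrophage genes on a list (Csf1r, Adgre1, C1qa and others) were well above background on all 12 arrays, and limma called 0 of them different. At an unadjusted limma p under 0.05 there was 1, beside 10.9% of all probes tested. Of the 16, 15 had a lower mean in YFP+ and 1 a higher one. Their median difference was −0.16, against −0.02 for all probes tested. Lists of other cell types differed: 5 of 11 epithelial genes, 6 of 11 fibroblast genes and 5 of 7 red cell genes tested were lower in YFP+ (limma, adjusted p under 0.05 over all probes), with median differences of −1.79, −1.84 and −2.20. Tspan8, Krt8, Muc1 and Krt18 led the first list (−3.36 to −2.11), Mfap5, Postn, Col3a1 and Col1a1 the second (−2.59 to −1.69), and Hbb-b2, Hbb-b1, Hba-a2 and Hbb-bt the third (−3.64 to −1.73). With array brightness as a covariate 0, 1 and 0 genes were called, and with an array left out 5 to 6, 3 to 6 and 1 to 6. Their summed linear levels, in units of the array's 75th percentile, were 7.33 to 15.0 in YFP+ against 19.3 to 47.4 in YFP− for the epithelial list. They were 13.3 to 34.0 against 50.6 to 131.6 for the fibroblast list and 9.61 to 60.3 against 67.8 to 167.8 for the red cell list. The part of these cells in the heavy chain differences was not tested, and in sorted bulk samples fewer cells of a type and less RNA per cell cannot be told apart.

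Heavy chain signal was higher in the YFP+ arrays for most features. Of the 91 members, 86 had a higher mean in YFP+ and 5 a higher mean in YFP−, with a median difference of 3.74 on the log2 scale, or 13.4-fold. The median was 4.24-fold (2.09 on the log2 scale) for the 11 constant features, of which 9 were higher in YFP+. It was 0.72 on that scale with 1 probe a gene name and 0.82 within slide 1 alone. It was 14.1-fold for the 76 variable features, of which 73 were. With normexp background correction the medians were 1.68 for the constant and 2.74 for the variable features on the log2 scale. Over all 25435 probes that were well above background on at least 6 of 12 arrays, the median difference was −0.02. When arrays were centred on their median instead, that median was 0.19, and 88 of 91 members had a positive difference.

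Of the 91 members, 75 passed the filter and entered the fit, and 16 did not. For 3 of the 75, no YFP− array was well above background, so that the YFP+ arrays alone carried them through. Limma called 22 members higher in YFP+ at an adjusted p under 0.05, where it called 0.283% of all probes tested higher, 1.24% lower and 1.53% in either direction. Over all probes 72 were higher and 316 lower, and with median centring 119 and 262. Without the YFP+ array of tumour 1, of tumour 4 or of tumour 5 the number of members called was 14. With array brightness, which differed between the groups, as a covariate it was 2, and within any single slide it was 0 (43 to 59 of the 75 at an unadjusted p under 0.05, beside 7.90% to 8.75% of all probes tested). The number of members whose 6 YFP+ arrays all lay above the 6 YFP− arrays was 18, beside 0.405% of all probes tested. Both counts describe the contrast the locus was picked for.

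The groups also differed in how many members gave a measurable signal. YFP+ arrays had 73 to 90 of the 91 well above background and YFP− arrays 45 to 61, with no overlap. Over all probes the shares were 63.0% to 66.1% in YFP+ and 61.3% to 63.9% in YFP−, which overlapped. The members were picked for being higher in YFP+, so their counts are a description. All 76 variable features were above background on the YFP+ array of tumour 5. In the YFP− group 25 members were above background on all 6 arrays, and 11 were on none.

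**Figure D1:**
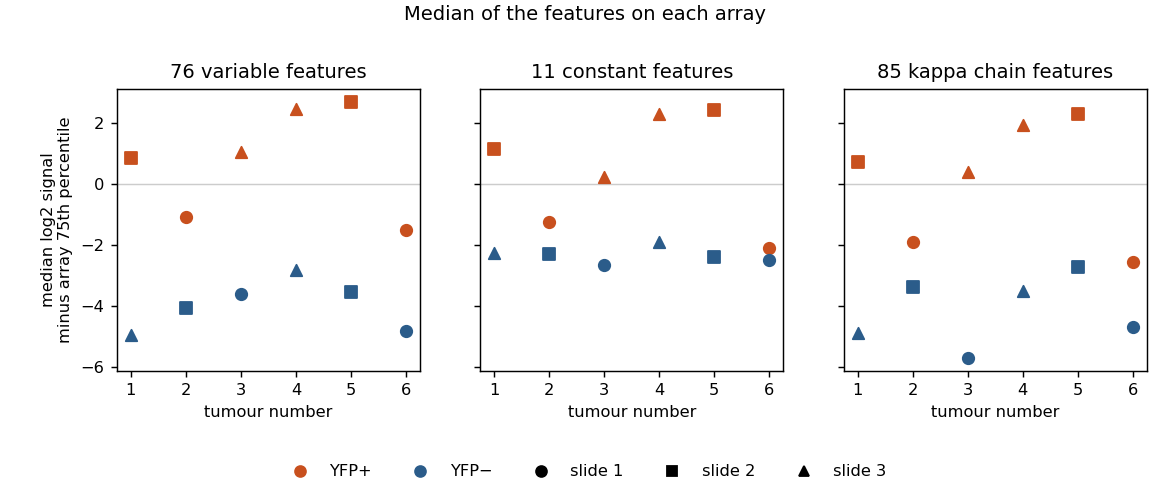
Median log2 level of the 76 variable, 11 constant and 85 kappa chain features on each of the 12 arrays (vertical axis, log2 signal minus the array's 75th percentile), against tumour number, with colour for the group and symbol shape for the slide. Every YFP+ median of the variable features lies above every YFP− median, and the lowest YFP+ arrays, tumours 2 and 6, are both on slide 1.

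The YFP+ arrays did not carry the signal evenly. The median level of the variable features was −1.49 on the lowest YFP+ array, 0.96 at the middle and 2.70 on the highest, and the range in YFP− was −4.96 to −2.82 with a median of −3.83. Tumours 4 and 5 were the high YFP+ arrays, with 2.45 and 2.70, and tumours 2 and 6 the low ones, with −1.09 and −1.49, as the plot of medians by tumour number shows. The same order ran through the members one by one. In 73 of the 76 variable features the highest YFP+ array was that of tumour 4 or 5, and in 70 the lowest was that of tumour 2 or 6.

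For the constant features the medians were −2.10, 0.70 and 2.43 (lowest, median and highest YFP+ array) and −2.65, −2.35 and −1.90 in YFP−. Here the groups overlapped, since the YFP+ array of tumour 6 lay within the YFP− range. In 10 of 11 constant features the highest YFP+ array was again tumour 4 or 5, and in 8 the lowest was tumour 6 or 2.

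Slide and YFP+ level moved together. Both low YFP+ arrays were on slide 1, and the median difference of the variable features was 2.19 within slide 1, 4.78 within slide 2 and 4.87 within slide 3. For the constant features it was 0.82, 1.45 and 1.52. Differences were positive on all 3 slides for 61 of 76 variable and 6 of 11 constant features. A fit with the slide as a block called 33 members and 582 of all probes.

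The YFP− arrays differed among themselves in another way. Tumour 1 was the lowest YFP− array for 47 of the 76 variable features, and the highest was tumour 4 for 25, tumour 5 for 21 and tumour 3 for 12. Tumour 1 was also the brightest YFP− array (75th percentile 3329), and features at background read lower on a brighter array after scaling. It had 36 variable features well above background, as many as tumour 6, so part of the 47 can rank scaled background. The spread between arrays was large in both groups, with a median SD over members of 1.85 in YFP+ and 1.83 in YFP− on the log2 scale (n = 6 arrays each).

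Light chains of the kappa class had the same shape. Of 85 kappa probes in their own locus, 83 had a higher mean in YFP+, with a median difference of 3.50, and their YFP+ array medians were again highest for tumours 5 and 4 (2.29 and 1.95) and lowest for tumours 6 and 2 (−2.56 and −1.90).

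**Figure D2:**
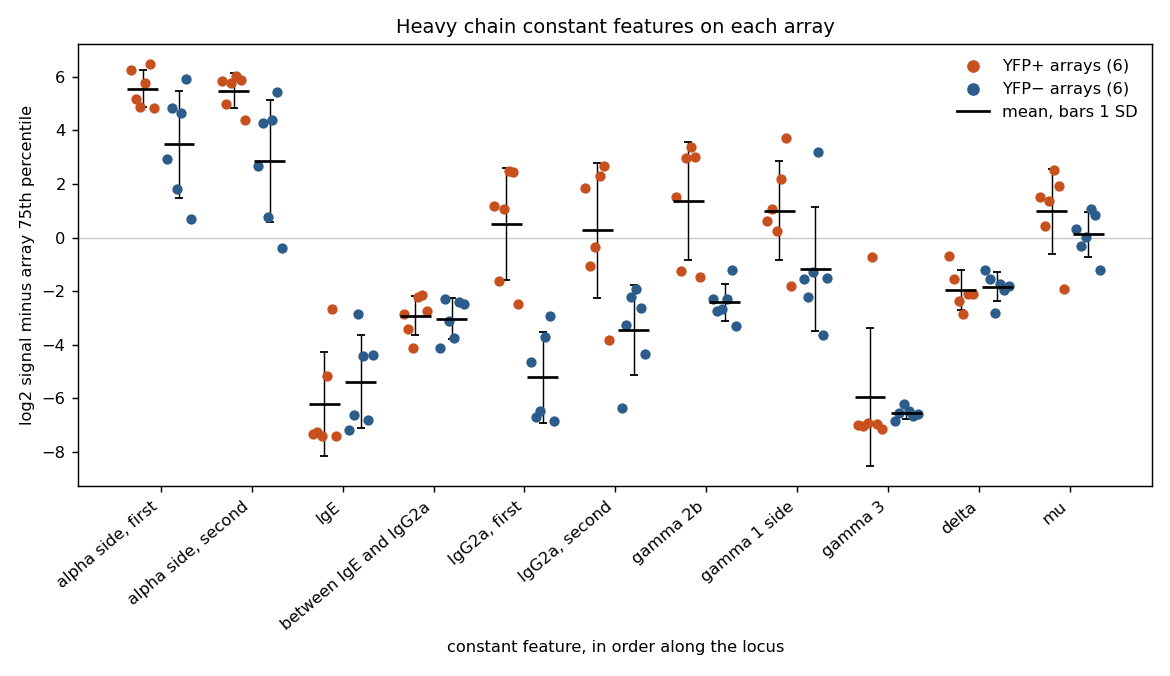
Log2 level of the 11 constant features on the 6 YFP+ and 6 YFP− arrays (points, vertical axis in log2 signal minus the array's 75th percentile), with the mean and 1 SD, in order along the locus. Only the first IgG2a feature has no overlap between the groups. The gamma 3 points lie near the bottom except for 1 YFP+ array at −0.71, and many IgE points are not well above background.

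The constant genes follow one another in RefSeq's mouse table as Igha, Ighe, Ighg2c, Ighg2b, Ighg1, Ighg3, Ighd and Ighm. Probes described as IgE, IgG2a, gamma 2b, gamma 3, delta and IgM lay in that order on mm9. The files give no class for the pair of probes before IgE or for the probe between gamma 2b and gamma 3, which are called the alpha side and the gamma 1 side here from their position alone.

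The alpha side is where the locus encodes IgA, the class secreted onto mucosal surfaces. The probe A_55_P1960148 read 4.38 on its lowest YFP+ array, 5.80 at the median and 6.04 on its highest, against −0.40, 3.46 and 5.42 in YFP−. All 6 YFP+ arrays lay in a narrow band, whereas the YFP− arrays were spread out, with tumours 6 and 3 low and tumour 5 among the YFP+ values. The difference of the means was 2.63 on the log2 scale (SE 0.88), or 6.19-fold, and the YFP+ array was higher for 6 of 6 tumour numbers. Its neighbour on the same transcript, A_51_P509679 at chr12:114496985-114497044, read 4.83 to 6.47 in YFP+ (median 5.46) and 0.71 to 5.93 in YFP− (median 3.79), a difference of 2.09 (SE 0.79) or 4.24-fold. Both were well above background on all 12 arrays. Within slides the difference of A_55_P1960148 was 4.49, 1.03 and 2.38, so that slide 1, low for most members, had the largest difference here.

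The largest constant difference was that of an IgG2a feature. RefSeq lists Ighg2c at this place, the form of the class carried by C57BL/6 mice. A_55_P1956598 at chr12:114525496-114525555, described as serum IgG2a, read −2.49, 1.12 and 2.49 (lowest, median, highest) in YFP+ and −6.84, −5.55 and −2.91 in YFP−. No YFP− array reached the YFP+ range, and 3 of the 6 YFP− arrays were well above background. The difference was 5.72 (SE 1.0), or 52.5-fold, and it was the single constant feature among the 22 called.

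A_55_P2034655, annotated to the same transcript at chr12:114525600-114525659, ranged from −3.83 to 2.68 in YFP+ and from −6.37 to −1.90 in YFP−. Here the YFP+ array of tumour 6 lay among the YFP− arrays, and the difference was 3.71 (SE 1.12). The gamma 2b feature read −1.46, 2.24 and 3.40 in YFP+ and −3.29, −2.46 and −1.22 in YFP−. Tumours 2 and 6 of YFP+ overlapped only with YFP− tumour 5, and the difference was 3.77 (SE 0.86) or 13.7-fold. Both are IgG subclasses that circulate in mouse serum.

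On the gamma 1 side, A_51_P461067 read −1.79, 0.85 and 3.70 in YFP+ and −3.63, −1.54 and 3.19 in YFP−. The YFP− array of tumour 4 stood apart at 3.19, above 5 of the 6 YFP+ arrays. The second probe on this transcript, A_55_P2066173 at chr12:114568594-114568653, had its highest YFP− value on the same array, 3.07, with the other 5 between −2.85 and −1.62. Its text names a variable region, so it was kept apart from both classes. The differences were 2.17 (SE 1.1) and 2.78 (SE 1.20).

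The gamma 3 feature was near the bottom of the scale. It was well above background on 1 YFP+ array, tumour 4 at −0.71, and on no YFP− array. The other 5 YFP+ arrays read −7.14 to −6.93. The IgE feature, A_55_P1985209 at chr12:114509504-114509563, was well above background on 1 YFP+ and 3 YFP− arrays, with a difference of −0.83, and neither feature entered the fit.

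The mu and delta features, which mark B cells before class switching, differed less. The mu probe, printed 10 times on each array, read −1.93, 1.45 and 2.54 in YFP+ and −1.22, 0.17 and 1.08 in YFP−. The ranges overlapped widely, 5 of 6 tumour numbers were higher in YFP+, and the difference was 0.85 (SE 0.67) or 1.81-fold. The delta probe, A_51_P266248 at chr12:114654277-114654336, read −2.86 to −0.70 in YFP+ and −2.80 to −1.21 in YFP−, with a difference of −0.11 (SE 0.36) that became 0.07 under quantile normalization and 0.10 under median centring. A feature between IgE and IgG2a, A_55_P2021084 at chr12:114523536-114523595, differed by 0.12 (SE 0.42), and by −0.12 with normexp background correction.

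**Figure D3:**
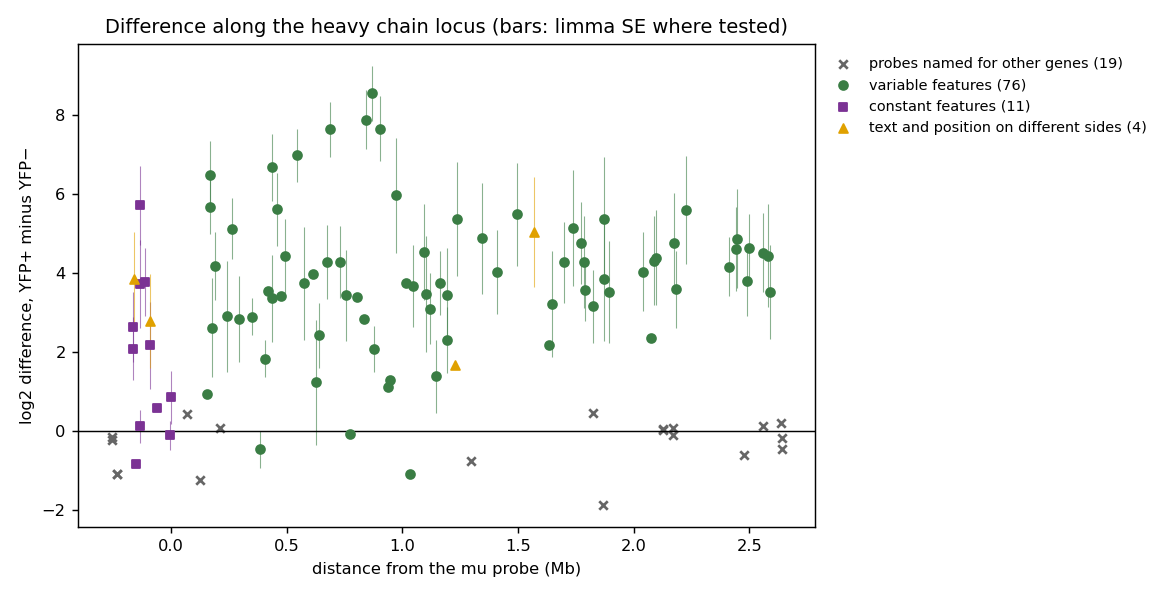
Log2 difference between the YFP+ and YFP− means for each heavy chain feature, with limma's standard error where the feature was tested, against its distance from the mu probe in Mb. The crosses are 19 probes of the same interval named for other genes. Variable features with differences above 6 lie within 1 Mb of the mu probe, and the crosses stay between −1.87 and 0.46.

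Variable features covered the whole V side of the locus, from the D-proximal segments next to the constant genes to the far end. The 43 features within 1 Mb of the first V probe had a median difference of 3.47, the 22 between 1 and 2 Mb one of 4.03, and the 11 beyond 2 Mb one of 4.52. All 3 features with a negative difference were in the first group, as were the 5 with the largest differences. A description such as an IgA or IgM VDJ clone tells where a V sequence was first read and not which class carried it in these samples.

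The largest difference was that of A_52_P311042 at chr12:115526464-115526523. It read −0.52, 2.01 and 4.23 (lowest, median, highest) in YFP+ and −7.01, −6.73 and −6.00 in YFP−. No YFP− array was well above background, so the YFP+ mean was at least 103.5-fold higher, counted against the lowest signal that was well above background on each YFP− array. A_66_P129427 at chr12:115500995-115501054 and A_55_P2025586 had the same pattern, at least 71.1-fold and at least 66.8-fold higher, with YFP+ ranges of −0.99 to 3.99 and −1.32 to 3.89. All 3 lie within a short stretch of the V side, and tumour 5 was the highest YFP+ array for each.

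The next were A_55_P1978994 at chr12:115347272-115347331 and A_55_P2001849 at chr12:115202750-115202809, each well above background on 6 YFP+ arrays and 1 YFP− array. A_55_P1978994 read 1.66 at the median and 3.63 at most in YFP+ and −6.68 to −3.81 in YFP−, a difference of 7.64 (SE 0.70) that was 4.76 with normexp. A_55_P2001849 read −0.63 to 3.06 in YFP+ and −7.15 to −4.06 in YFP−, a difference of 6.98 (SE 0.66) that was 4.09 with normexp. On the other 5 YFP− arrays neither was well above background. Neither had any overlap between the groups. Over the 11 members below background on every YFP− array, 8 allowed a bound, from at least 1.79-fold to at least 103.5-fold.

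**Figure D4:**
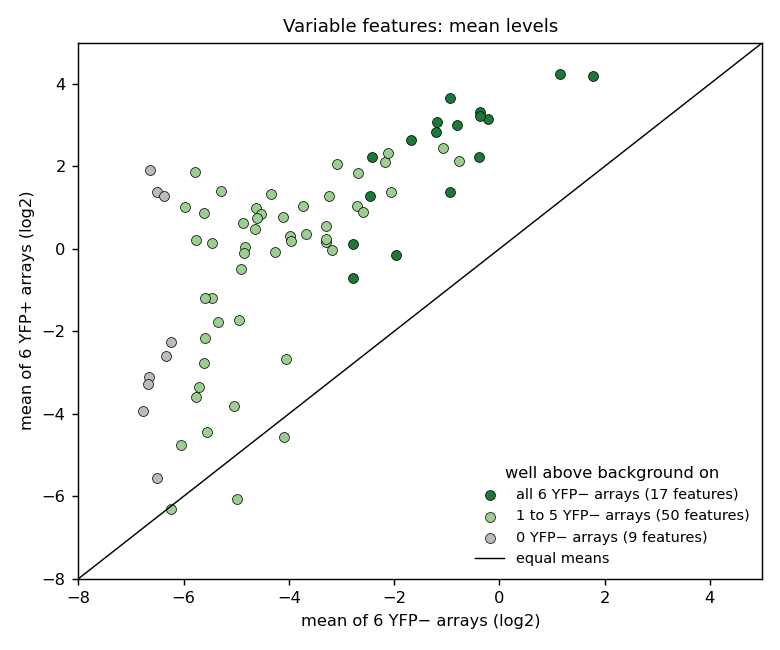
Mean log2 level of the 6 YFP+ arrays (vertical) against the mean of the 6 YFP− arrays (horizontal) for the 76 variable features, shaded by the number of YFP− arrays well above background. The 17 features measured on all 6 YFP− arrays lie above the line of equal means, 1.83 to 4.65 above it, and the points at the far left have YFP− values at background.

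Features measured in both groups give differences that are not bounds. For the 17 variable features above background on all 12 arrays the median difference was 3.59 (range 1.83 to 4.65). All 8 variable features with the highest mean over the 12 arrays were well above background on every array. The one with the highest mean, A_55_P2030299 at chr12:115298056-115298115, from a C57BL/6 heavy chain clone, read 2.50, 4.44 and 5.85 in YFP+ and −0.75, 1.95 and 4.10 in YFP−, with a difference of 2.42 (SE 0.82). YFP− tumours 2, 4 and 5 reached the YFP+ range there.

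Single YFP− arrays were often high for some V features and low for others. A_51_P275642 at chr12:115097549-115097608 read 4.16 on YFP− tumour 5 and −2.93 on YFP− tumour 4, whereas A_55_P2001262, annotated as Ighv1-2 at chr12:115707350-115707409, read −0.80 and 4.01 on the same arrays. A_51_P288295 at chr12:115776734-115776793, from a transcript described as non-functional, read 4.03 on tumour 4 and 2.10 on tumour 5. The differences of the others of the 8, A_55_P2130497, A_52_P213483, A_55_P1969901 and A_55_P1993001, were 3.59, 4.61, 3.79 and 4.27, with SEs of 0.87 to 1.17.

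At the other end, 3 variable features had a higher mean in YFP−. A_55_P2006874 at chr12:115693957-115694016 differed by −1.09, but was well above background on 1 YFP+ and 3 YFP− arrays. Its YFP+ array of tumour 5 read 0.094 while the other 5 read −7.33 to −7.26. A_55_P2178834 at chr12:115045625-115045684 differed by −0.46 (SE 0.47), with 5 arrays of each group above background. A_55_P2025583 differed by −0.07, was above background on 1 array of each group, and had a positive sign under quantile normalization (0.40), median centring (0.14), the deposited value table (0.40) and normexp (0.075). Probes at background often read lower on the brighter YFP+ arrays after scaling. A_55_P2046648, above background on no array, read −7.32 in YFP+ and −6.82 in YFP−, while A_55_P2054787, also on none, read −6.03 and −6.34. The part of this in these 3 differences and in that of IgE was not tested.

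The features closest to these, A_55_P2066894 and A_55_P2133929, differed by 0.94 and 1.11 and were above background on 2 YFP+ arrays each and on 0 and 2 YFP− arrays. Of the members whose text and position disagreed, A_55_P2214124 on the alpha side carries a V family name and differed by 3.85 (SE 1.19). A_52_P358406 at chr12:116229490-116229549, described as IgM but placed among the V segments, differed by 5.04 (SE 1.39). A_51_P155336, described as a gamma chain, was above background on 3 YFP+ arrays and no YFP− array.

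The 91 probes were annotated to 84 transcripts, and 7 transcripts had 2 probes each. The paired probes differed between the groups by amounts that lay 0.54 to 3.32 apart (median 0.80), so the value of a transcript depended on which of its probes was read. The widest gap was on a V transcript whose probes A_55_P1997648 and A_51_P275642 differed by 6.68 and 3.36.

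The 19 probes named for other genes that the array places in the same interval had differences between −1.87 and 0.46. Birc3, Ankrd12, Elob and Odc1 were among their names, and whether each gene itself lies in the locus was not checked. Of these 19, 16 were tested and limma called 0 (2 at an unadjusted p under 0.05, beside 10.9% of all probes tested). The median difference over all 19 was −0.15. Adam6a and Adam6b, testis-expressed protease-like genes that lie between the V and D segments in mouse, differed by −1.25 (SE 0.91, limma adjusted p = 0.70) and 0.43 (SE 0.61, adjusted p = 0.88). Of 52 probes with no gene name in words, 29 were tested and 4 were called higher in YFP+, beside 0.283% of all probes tested. They were A_51_P405638, described as an H chain V region (5.36, SE 0.94), A_55_P2065506 (5.26, SE 0.90), A_55_P2134277 (4.45, SE 0.94) and A_55_P1954361 (3.70, SE 0.81). The last 3 carry only an Ensembl transcript name and lie among the V segments. All 4 lie in the locus picked for this contrast, so they are given as a description with no p-value. Among the 52, the probes described as uncharacterized LOC102642252 differed by 3.79 and 5.16 and were not called.

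Genes that work with heavy chains in antibody-secreting cells were measured on a list of 24, of which limma called 0. At an unadjusted limma p under 0.05 there were 6, beside 10.9% of all probes tested. Of the 24, 18 had a higher mean in YFP+ and 6 a lower one. The median difference was 0.29, against −0.02 for all probes tested. Jchain, which links IgM and IgA into polymers, read −0.62, 2.74 and 3.89 (lowest, median, highest) in YFP+ and −6.61, −2.85 and 1.57 in YFP−. As with the heavy chains, tumours 4 and 5 were the highest YFP+ arrays and tumours 6 and 2 the lowest, and YFP− tumours 5 and 4 lay within the YFP+ range. The difference was 4.78 (SE 1.47, 6 of 6 tumour numbers), and limma's adjusted p was 0.18, above the threshold of 0.05. With the slide as a block limma called 3 genes of the list higher, Jchain (adjusted p = 0.024) and Creld2 (adjusted p = 0.040) among them. Over all settings the adjusted p of Jchain ran from 0.024 to 0.65 and that of Creld2 from 0.040 to 0.79.

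Pou2af1, a coactivator of immunoglobulin transcription, differed by 3.08 (SE 1.12, limma adjusted p = 0.29), and Mzb1, a chaperone of antibody assembly, by 2.41 (SE 1.1, adjusted p = 0.45). Tnfrsf17, the BCMA receptor of plasma cells, differed by 1.81 (SE 1.0, adjusted p = 0.57). Pou2af1, Mzb1 and Tnfrsf17 were named after their values were seen. With Jchain they had the largest positive differences of the list. Irf4 and Creld2 differed by 0.85 (SE 0.27, adjusted p = 0.19) and 1.01 (SE 0.35, adjusted p = 0.25). The plasma cell surface proteoglycan Sdc1, which epithelia also make, differed the other way, by −1.13 (SE 0.35, adjusted p = 0.18, lower in 6 of 6 tumour numbers). Prdm1 and Xbp1, transcription factors of the plasma cell stage that macrophages also express, differed by −0.06 and 0.25.

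**Figure D5:**
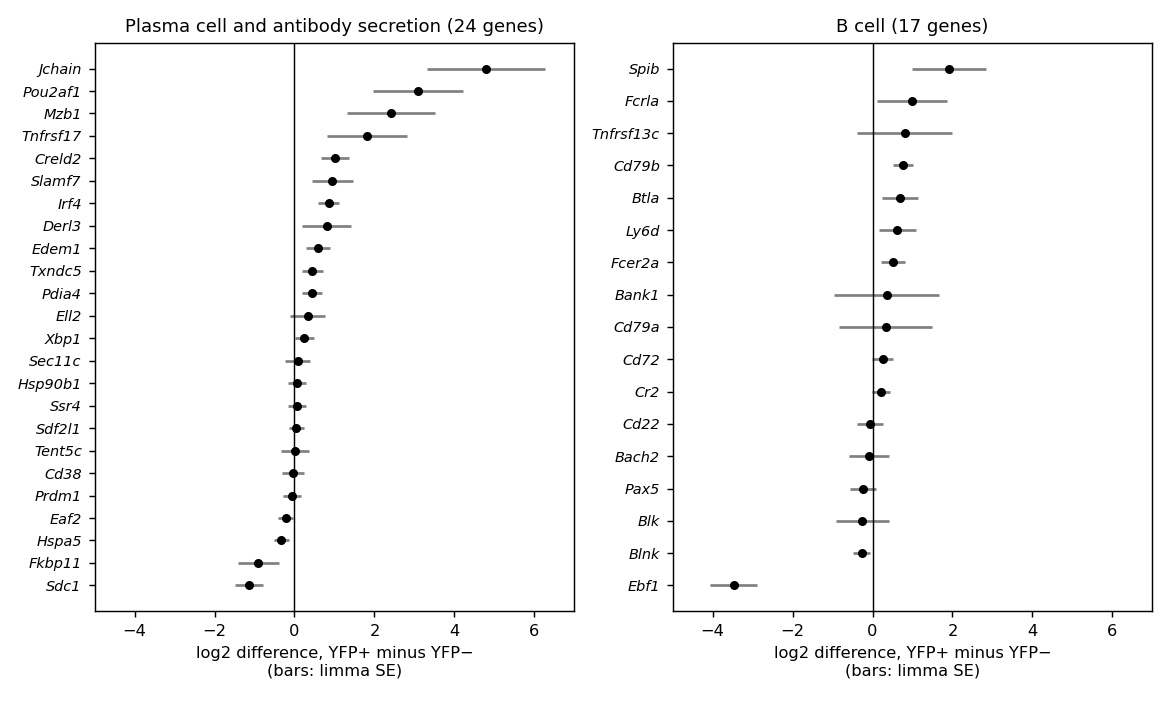
Log2 difference between the YFP+ and YFP− means, with limma's standard error, for the 24 plasma cell and antibody secretion genes (left) and the 17 B cell genes tested (right). Jchain, Pou2af1, Mzb1 and Tnfrsf17 lie farthest to the right on the left panel, and Ebf1, at −3.47, is the single gene of either panel past the threshold.

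A second list held genes of the B cell itself. Of 24 listed, 17 were tested, 1 fell and 0 rose (limma, 2 at an unadjusted p under 0.05, beside 10.9% of all probes tested). Among the 17, 11 had a higher mean in YFP+ and 6 a lower one. The median difference was 0.33. Ms4a1, which encodes CD20, was well above background on 1 of 12 arrays. Cd79b, a signalling chain of the B cell receptor, differed by 0.76 (SE 0.25, limma adjusted p = 0.21, higher in 6 of 6), Spib by 1.92 (SE 0.93, adjusted p = 0.49) and Fcer2a by 0.51 (SE 0.31, adjusted p = 0.61). Cd79a differed by 0.33 (SE 1.16, adjusted p = 0.96), and a second, dimmer Cd79a probe that did not pass the filter by 3.11.

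The gene that fell was Ebf1, a B lineage transcription factor that stromal cells also express. It read −7.20 to −4.30 in YFP+ and −4.69 to −1.55 in YFP−, and was well above background on 1 and 5 arrays. The groups overlapped only through tumour 1, and the difference was −3.47 (SE 0.59, limma adjusted p = 0.011, lower in 5 of 6 tumour numbers). The call was lost with array brightness as a covariate (adjusted p = 0.44), and over all settings the adjusted p ran from 0.0020 to 0.53. Fibroblast genes were lower in the same arrays, as given above, and their part in this value was not tested. Vpreb3, a protein that binds new heavy and light chains in B cells, was above background on 4 YFP+ arrays and on no YFP− array, with −7.03 to −1.07 against −6.58 to −6.19.

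On a list of recombination and class switching genes, 14 of 18 were tested and limma called 0. At an unadjusted limma p under 0.05 there were 2, beside 10.9% of all probes tested. The median difference of the tested genes was 0.06. Those with the smallest p were Xrcc6, Ung, Rnf8 and Dclre1c, which differed by 0.82, −0.67, 0.52 and −0.37, and limma called Ung with the slide as a block (adjusted p = 0.048). Rag1, which cuts at recombination signals, did not pass the filter. It was above background on 5 YFP+ arrays and on none of YFP−, at −3.53 ± 1.23 and −5.81 ± 1.18 (SD, n = 6 each), and a second Rag1 probe differed by −0.51.

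Antibody receptors and carriers were the last of these lists. Of 13 listed, limma tested 10 and called 0 (0 at an unadjusted p under 0.05, beside 10.9% of all probes tested). The median difference was −0.11. Fcgr1, Fcgr2b, Fcgr3 and Fcgr4, through which macrophages bind IgG, differed by 0.12, −0.11, −0.17 and −0.11, with SEs of 0.16 to 0.23. Fcer1g, Lgals3 and Fcgrt differed by −0.22, 0.16 and −0.28. Pigr, the epithelial carrier of polymeric IgA, differed by −0.22 (SE 0.54, limma adjusted p = 0.94).

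Among all other probes tested, those whose values followed the mean of the constant features most closely over the 12 arrays, after each group's mean was taken out, were named as a description. Derl3, a component of the degradation pathway of the endoplasmic reticulum that plasma cells use, came first (Pearson r = 0.917), followed by Trim12c (0.912), Igkv4-72 (0.907) and Dhx37 (0.905). Next were ENSMUST00000103318 (0.895), the kappa chain features AY081860 (0.889), ENSMUST00000103304 (0.883) and ENSMUST00000101325 (0.865), Nfasc (0.880) and Tnfrsf13c, the BAFF receptor of B cells (0.870). All 12 arrays share the scaling to the 75th percentile. Between the groups Derl3 differed by 0.80 (SE 0.60), Trim12c by −0.48 and Dhx37 by −0.18, so that a shared order of arrays went with group differences of different sizes and signs.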

How the data were processed

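Per the labels' protocols, amplified cDNA from total RNA carried Cy5 and was put on Agilent arrays, here of the 4x44K design. The deposited intensity values come from Agilent Feature Extraction 11.5.1.1, per the file headers and the submitters' processing notes. The authors also deposited a table of log2 values, used as an alternative, which ranked the probes of each array as the scanner signals do. In it 0 columns were not used. Control spots (1377) and spots with outlier flags were left out, spots of a probe were averaged, and 39394 of 39429 probes had a value on all 12 arrays. Levels are log2 of the red processed signal minus the array's 75th percentile. The comparison of the groups used R 4.3.3 and, with group as the single term, lmFit and eBayes of limma 3.58.1 on the 25435 probes well above background on at least 6 arrays, with Benjamini-Hochberg adjustment and a threshold of 0.05. The arrays' number limits precision. Positions are mm9 from the array annotation. Tables and plots were made with matplotlib 3.10.9, numpy 2.4.6, pandas 2.3.3 and scipy 1.17.1 under Python 3.11.15, and the fit was tested on simulated data.

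The members, lists and rules were chosen with earlier results of these data known. Named are all constant features, the features kept apart, the 8 variable features with the highest mean, the 5 largest and 5 smallest differences, the 10 nearest patterns and up to 4 genes with the smallest p of each list; these are printed for the lists the report describes and left out for the core macrophage list and the lists named next. Other genes of the lists were named after their values were seen. A gene's brightest probe stood for it. Current names came from RefSeq's table of GRCm38.p6, matched for 28330 probes. Lists of plasmacytoid dendritic cells (0 of 8 tested genes called by limma, 3 at an unadjusted p under 0.05), T and NK cells (0 of 10, 2 unadjusted) and acinar cells (0 of 10, 5 unadjusted; median difference −1.68) were also examined. Over all probes tested, 10.9% had an unadjusted limma p under 0.05. The labels do not say that arrays with the same tumour number share an animal. The correlations of deviations within a number were −0.28 to 0.36, not above 0.1 for every number, so no pairing was assumed and the number was used as a block only in an alternative. These values cannot exclude pairing, and the counts of tumour numbers given above are descriptions beside p-values of an unpaired fit. Other settings tried were quantile normalization, median centring, the deposited table, normexp with an offset of 50, tumour number or slide as a block, array brightness as a covariate, each slide alone, leaving out each array, other filters, 1 probe a gene name and a variance trend. Raising dim signals to the array's floor and a split of the features by position alone were added after seeing the data.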

Additional observations from a re-analysis of the deposited data

Results flagged for a closer look

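Of 92 groups of 6 arrays examined among the named features, the class medians and the gene lists, 11 held a single array far from the other 5. For independent and normally distributed values the cut-off used marks about 1 in 20 such groups. Several of these groups hold arrays at background, and many are probes of 1 locus, so the 11 cannot be read against that rate.

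The YFP− array of tumour 4 stood highest for both probes of the gamma 1 side, at 3.19 for A_51_P461067 and 3.07 for A_55_P2066173, where the other 5 YFP− arrays reached −1.28 and −1.62 at most. The same array had the highest median of the recombination and class switching list in its group, 0.31 against −0.90 to −0.49, and the lowest median of the epithelial list, −0.18 against 0.93 to 1.32.

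The YFP+ array of tumour 4 was the single one with signal for the gamma 3 feature A_55_P2118876, at −0.71. The YFP+ array of tumour 5 stood apart for the V features A_55_P2006874 (0.094) and A_55_P2025583 (−1.18), whose other YFP+ arrays read −7.38 to −7.24 in the second case.

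The remaining values were on YFP− arrays. Tumour 6 read −3.42 for A_55_P2025583 and −5.41 for A_55_P2025586, tumour 2 read −4.66 for A_51_P155336, and tumour 1 read −5.28 for A_55_P2066894. For A_55_P2025586, A_51_P155336 and A_55_P2066894 no YFP− array was well above background, these values included.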

How the results depend on the processing

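The 22 heavy chain calls became 35 with normexp, 34 with a variance trend, 14 with no filter, 6 with probes above background on all 12 arrays and 2 with array brightness as a covariate. The corresponding counts over all probes, 388 in the main setting, were 613 with normexp, 250 with probes above background on all 12 arrays and 12 with brightness. Within slide 1, 2 or 3 alone limma called 0 probes and 0 members, with 44, 59 and 43 of the 75 members and 2226, 2185 and 2009 of the 25435 probes at an unadjusted p under 0.05. Leaving out 1 array gave 14 to 30 heavy chain calls, with 14 without the YFP+ array of tumour 1, 4 or 5, and 296 to 399 over all probes. Of the 22, 14 were called in all 12 of these fits.

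The median difference of the constant features, 2.09, was 0.82 within slide 1, 0.72 with 1 probe a gene name and 1.53 to 2.32 with an array left out. That of the variable features, 3.82, was 5.16 with brightness, 2.19 within slide 1 and 3.43 to 4.44 with an array left out. With normexp the medians were 1.68 for the constant and 2.74 for the variable features. The plasma cell list's median was 0.20 to 0.34 and the B cell list's 0.21 to 0.62 with an array left out. With the tumour number as a replicate block, 18 members were called (17 of them among the 22) and 313 probes in all. That block ended the call of Ebf1 (limma adjusted p = 0.076), Hba-a2 and Hbb-bt and added Sdc1 (adjusted p = 0.048) and Amy2a5. For 3 of 6 numbers the arrays' deviations correlated best within the number. With the slide as a block 33 members and 582 probes were called. No direction reversed for a called result under any setting run (up to 27 a result). Of 44 named genes of the lists, 13 passed in the main setting, and over these genes and settings 89 calls were lost and 11 gained. The cause of these changes was not tested. Members at background on all 6 YFP− arrays have only bounds, the differences of those at background on some depend on the background correction, and 6 arrays a group limit every value.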
